A study of Drosophila melanogaster with 24 samples.

Results

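The comparison described here sets the small PDF neurons of the adult Drosophila brain against the large PDF neurons, on 10 of the 24 arrays of the series. It uses 4 arrays of small PDF neurons, 2 at ZT0 and 2 at ZT12, and 6 arrays of large PDF neurons, 3 at each of these times. ZT (zeitgeber time) counts hours within the light and dark cycle, with lights on at ZT0 and off at ZT12, and both times were given equal weight. All 10 samples are from adults of both sexes in the yw background, in which the PDF neurons carried GFP from a driver that the labels do not name. Each sample came from about 50 brains, dissociated with protease and sorted by hand for GFP, so an array reads a pool of animals. The sources used here do not give how small and large cells were told apart during sorting. The other arrays hold ELAV neurons, a general neuronal population (3 arrays each at ZT0 and ZT12), large PDF neurons at ZT6 and ZT18 (2 arrays each) and large PDF neurons of male flies with the period mutation per01 (2 arrays each at ZT0 and ZT12).

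PDF (pigment-dispersing factor) is the neuropeptide through which these clock neurons signal to the rest of the circadian network. The small ventrolateral neurons project to the dorsal brain and keep the rhythm going in constant darkness, while the large ones project across the optic lobes and are known for arousal and light responses. Both kinds run the same molecular clock, in which CLK and CYC drive per, tim, vri, Pdp1 and cwo. The comparison asks in which other transcripts these sister cell types differ.

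Expression was measured with Affymetrix arrays, on which a probe set is a group of short probes against a transcript, and is given as log2 values. Of 18769 probe sets that are not controls, 8318 reached log2 5 on at least 2 of the 24 arrays and were tested, and 7217 of these carry 1 gene symbol, for 6663 genes. Values under about 5 are mostly background. Medians over all probe sets ran from 3.14 to 3.33 on small and from 3.16 to 3.36 on large arrays. Correlations across probe sets were 0.878 to 0.929 between replicates of a group, 0.840 to 0.911 between times of the same kind and 0.809 to 0.877 between a small and a large array. Pdf lay at 15.77 to 15.87 on small and 15.50 to 15.99 on large arrays, at the top of the scale, against 2.76 to 5.34 on ELAV arrays. The blue-light receptor gene cry was likewise at 10.71 or more on all 10 arrays and at most at 6.49 on ELAV arrays. By these markers both kinds were PDF clock neurons, and the labels give no marker of small against large cells.

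Some arrays stood apart. Large ZT0 replicate 2 held the glial gene Gs2 at 9.53, the matrix genes Ppn at 10.3 and vkg at 8.66 and the muscle gene bt at 7.58, against at most 6.20 for any of these on the other large arrays. Small ZT0 replicate 1 held Gad1, which makes GABA, at 7.11 and the other small arrays at most at 2.99. The acetylcholine enzyme gene ChAT was at 7.93 on small ZT0 replicate 2, at 6.90 on small ZT12 replicate 1 and at 7.68 on large ZT0 replicate 1. Over the whole marker lists the mean level of 14 glial genes was 4.55 to 5.03 on small and 4.13 to 5.0 on large arrays, with repo, the defining glial gene, at 3.01 to 3.45 on small arrays and reaching 5.14 on large ZT12 replicate 1. The mean of 10 haemocyte and matrix genes was 3.96 to 4.43 on small and 4.40 to 6.99 on large arrays, with the highest mean on large ZT0 replicate 2. On that array the haemocyte genes Hml and eater read 6.73 and 5.73 and the matrix gene Col4a1 10.37, against at most 4.05, 2.62 and 6.47 on the other 9. The haemocyte genes He, NimC1 and srp were at 4.05 or less on all 10. The means of 13 muscle genes were 3.50 to 4.05 and 3.26 to 4.62, and those of 3 cholinergic genes 3.44 to 6.97 and 2.83 to 5.03. The VGlut gene of glutamatergic neurons was at 2.45 to 2.59 on all 10. Of the marker genes tested 2 of 7 glial genes were higher (Indy and nrv2) and 1 lower (loco), 1 of 3 photoreceptor genes higher (rdgC), 1 of 5 haemocyte genes lower (Pxn), 1 of 2 GABA genes higher (VGAT), 1 of 7 monoamine genes higher (Vmat) and 2 lower (DAT and Tdc2), and 2 of 8 Kenyon cell genes higher (sNPF and mub) and 2 lower (Dop1R1 and prt). Of 5 fat body, 5 muscle and 3 cholinergic genes limma called 0. At an unadjusted p under 0.05 0, 0 and 2 were higher, and 0, 0 and 1 with a variance trend and robust moderation. Of all 6663 genes tested 17.4% were called. Small ZT12 replicate 1 was the highest of the small arrays for 265 (40%) of the probe sets called lower in small PDF neurons and for 31.1% of those not called. The part of these transcripts in the results was not tested beyond leaving arrays out.

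Of the 8318 probe sets 1423 (17.1%) differed between small and large PDF neurons at an adjusted p under 0.05, and these are called here. In small PDF neurons 760 (9.14%) were higher and 663 (7.97%) lower, with median log2 differences of 1.58 and -1.43. The median over all tested was 0.03. At least 2-fold differences were called for 1175 (14.1%). With the variance estimated only from the 4 groups compared, 802 (9.64%) were called, of which 771 (9.27% of all tested) were also called with all arrays, 417 (5.01%) higher and 354 (4.26%) lower. Without large ZT0 replicate 2 and small ZT0 replicate 1 the count was 956, with 457 higher and 499 lower, and without small ZT12 replicate 1 it was 1251, with 627 higher and 624 lower. The values of the 4 small and the 6 large arrays did not overlap for 796 probe sets (9.57%), 433 (5.21%) higher and 363 (4.36%) lower. Both called and free of overlap were 659 (7.92%), 350 (4.21%) higher and 309 (3.71%) lower. Counted as genes, 1160 of 6663 (17.4%) were called, 590 (8.85%) higher and 570 (8.55%) lower. A difference in bulk samples cannot tell fewer cells of a type from less RNA per cell.

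**Figure D1:**
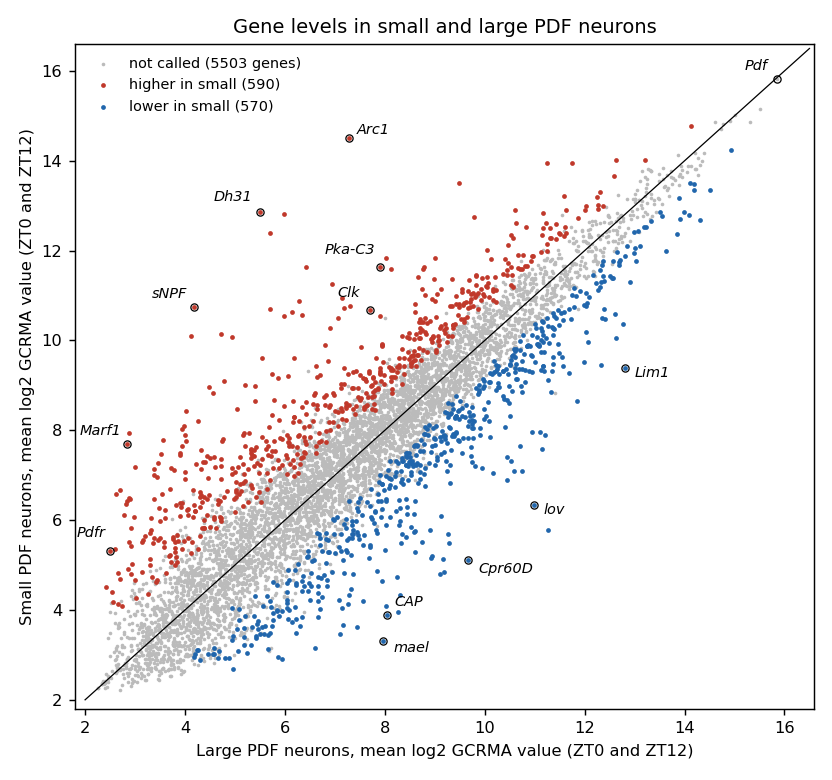
Mean log2 value of each of the 6663 genes in large PDF neurons (x axis, 6 arrays) and small PDF neurons (y axis, 4 arrays), both times weighted equally, with the line of equal level. The 590 genes called higher in small PDF neurons are red and the 570 called lower blue, and Pdf lies on the line at the top of the scale while Dh31, sNPF and Arc1 lie far above it and lov, CAP and mael far below it.

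Among all genes called, the largest difference belonged to a second peptide gene. Dh31 encodes diuretic hormone 31, a calcitonin-like peptide that other clock neurons also use. It read 12.58 and 11.85 at ZT0 and 13.27 and 13.71 at ZT12 on small arrays, and 2.31, 3.54, 5.60 at ZT0 and 10.26, 7.72, 3.55 at ZT12 on large arrays. Every small array was above every large array, while large ZT12 replicates 1 and 2 also stood above background, and the difference was 7.36 ± 0.89 (SE, log2, adjusted p = 2.3e-05). On the ZT6 and ZT18 large arrays Dh31 was at 4.0 or less. The short neuropeptide F gene sNPF, whose peptide is known from small but not large PDF neurons, read 13.34 and 13.19 at ZT0 and 8.04 and 8.42 at ZT12 on small arrays. It was at 4.03, 2.66, 6.73 and at 3.67, 5.17, 2.87 on the large arrays of these times. Small arrays were all above large ones at each time, by 8.79 ± 1.19 at ZT0 (adjusted p = 0.00013) and 4.32 ± 1.19 at ZT12 (adjusted p = 0.032), and the change of this difference between times was not called (adjusted p = 0.31). ELAV arrays held Dh31 at 10.9 to 13.3 and sNPF at 11.3 to 13.8. The myosuppressin gene Ms, at 15.6 to 15.8 on ELAV arrays, was at 2.79 to 5.19 on small and 5.2 to 7.35 on large arrays.

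Of 26 neuropeptide genes tested these 2 were higher and 3 lower (19.2% called against 17.4% of all genes). The list's median difference was -0.03 against 0.01 over all genes. The 3 lower were Ms (-2.68 ± 0.68, adjusted p = 0.011), the glycoprotein hormone subunit gene Gpb5 (-2.11 ± 0.64, adjusted p = 0.03) and the allatostatin gene AstCC (-1.44 ± 0.44, adjusted p = 0.03). All 3 lost their calls in some of the 10 fits that left out an array, Ms in 2 (p as high as 0.074 without small ZT0 replicate 1), Gpb5 in 7 (0.15 without small ZT0 replicate 2) and AstCC in 6 (0.1 without small ZT0 replicate 1). Without small ZT0 replicate 1 and large ZT0 replicate 2 together, Dh31, sNPF and Gpb5 kept their calls.

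Receptor genes went both ways, with 7 of 29 peptide and amine receptor genes higher and 6 lower (44.8% called against 17.4% of all genes). The receptor of PDF itself, Pdfr, read 4.55 and 4.16 at ZT0 and 5.69 and 6.89 at ZT12 on small arrays. It was between 2.40 and 2.82 on the 6 large arrays, at 2.5 or less on the large arrays of ZT6 and ZT18 and at 2.7 or less on ELAV arrays. Small arrays thus stood apart from all of these at a low level, with both ZT0 values still under 5, by 2.82 ± 0.22 (adjusted p = 2.2e-07). With values under 5 raised to 5, the difference is at least 1.56-fold. Its change between ZT0 and ZT12 was not called (adjusted p = 0.083).

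The serotonin receptor gene 5-HT1A was at 9.82, 7.80, 8.18 and 10.03 on small arrays and between 3.0 and 6.07 on large arrays, with no overlap (4.48 ± 0.53, adjusted p = 2.1e-05). ELAV arrays had it at 8.7 to 9.8. The metabotropic GABA receptor gene GABA-B-R3 read 6.47 and 4.63 at ZT0 and 9.78 and 10.72 at ZT12 on small arrays, and 2.75 to 3.81 and 3.42 to 7.37 on large arrays. Values at the 2 times overlapped as a whole but not within a time (3.89 ± 0.70, adjusted p = 0.00081). The leucokinin receptor gene Lkr (2.47 ± 0.57, adjusted p = 0.0058) was under 5 on all large arrays and at 3.77 on small ZT0 replicate 1, with 5.99 to 7.25 on the other small arrays. Its adjusted p was 0.066 with only the 4 groups in the fit.

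Receptor genes lower in small PDF neurons included SIFaR, the receptor of the peptide SIFamide, at 8.35, 6.18, 7.89 and 5.91 on small and at 9.95 to 11.55 on large arrays (-3.50 ± 0.47, adjusted p = 6.7e-05). The octopamine receptor gene Octbeta1R read 6.33 and 6.92 at ZT0 and 10.79 and 7.55 at ZT12 on small arrays, and 9.80 to 10.42 and 12.15 to 12.66 on large arrays. Within each time the small arrays were lower, although small ZT12 replicate 1 exceeded the large ZT0 arrays (-3.31 ± 0.47, adjusted p = 0.00011). SPR, the receptor of sex peptide and of myoinhibitory peptides, was at 6.69, 6.60, 9.30 and 6.19 on small and 8.63 to 10.77 on large arrays, again with small ZT12 replicate 1 nearest to large (-2.62 ± 0.50, adjusted p = 0.0013). The dopamine receptor genes Dop2R (-2.36 ± 0.76, adjusted p = 0.04) and Dop1R1 (-2.03 ± 0.67, adjusted p = 0.046) lost their calls in 7 and 8 of the 10 fits that left out an array (adjusted p as high as 0.15 and 0.25, both without small ZT12 replicate 1). The dopamine transporter gene DAT was at 5.72, 8.39, 7.52 and 6.56 on small and at 9.55 to 10.57 on large arrays (-3.12 ± 0.46, adjusted p = 0.00017). Without small ZT0 replicate 1 and large ZT0 replicate 2, 6 of the 7 higher and 4 of the 6 lower receptor genes kept their calls.

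Among 18 ionotropic receptor genes 2 were higher and 2 lower (22.2% called against 17.4% of all genes). The kainate-type glutamate receptor gene KaiR1D was at 9.40 to 10.38 on small and 7.43 to 8.63 on large arrays (1.97 ± 0.43, adjusted p = 0.0038). The NMDA receptor gene Nmdar1 was at 9.28, 8.04, 9.64 and 8.51 on small and 10.13 to 10.89 on large arrays (-1.68 ± 0.26, adjusted p = 0.00026). Of 46 ion channel genes 4 were higher and 4 lower, a share (17.4%) equal to that of all genes. The calcium-activated potassium channel gene SK was at 11.72 to 13.12 on small and 10.30 to 10.79 on large arrays (1.70 ± 0.25, adjusted p = 0.00016), but 1 of its 2 other probe sets had the opposite sign.

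**Figure D2:**
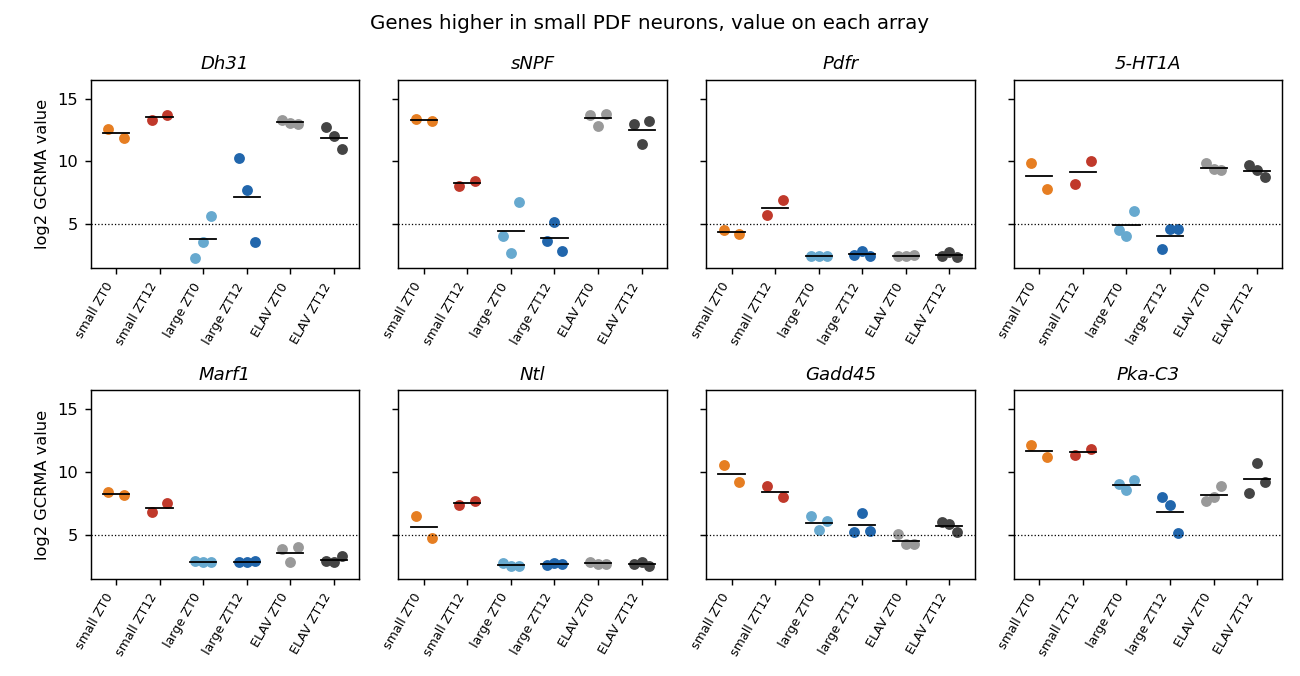
Log2 value on each array for 8 genes called higher in small PDF neurons, with a bar at each group's mean and a dotted line at log2 5. Small arrays are orange (ZT0) and red (ZT12), large arrays light and dark blue, ELAV arrays light and dark grey, and Dh31, sNPF and 5-HT1A are also high on ELAV arrays while Pdfr, Marf1 and Ntl are near background there.

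Of 12 genes that make and release peptides 6 were lower and 0 higher in the limma fit, with a median difference of -0.96. This is 50% called, against 17.4% of all genes. At an unadjusted p under 0.05 there were 7 lower and 1 higher, and with a variance trend and robust moderation 7 lower and 0 higher. Fitting only the 4 groups called 5 lower, and 5 of the 6 kept their calls without small ZT0 replicate 1 and large ZT0 replicate 2. Rph, rabphilin, a Rab-binding protein of secretory vesicles, read 11.06, 10.89, 10.56 and 10.32 on small arrays and 12.00 to 12.66 on large arrays. It was lower on every small array, by 1.68 ± 0.23 (difference -1.68, adjusted p = 5.9e-05), and the ELAV range was 10.7 to 11.8. Pal2, a lyase of the step that amidates peptide ends, was at 13.01 to 14.02 on small and 14.35 to 14.70 on large arrays (-1.15 ± 0.23, adjusted p = 0.0021). The furin gene Fur2, a convertase that cuts precursors, read 10.23 and 9.79 at ZT0 and 4.44 and 6.83 at ZT12 on small arrays, and 9.99 to 10.52 and 8.82 to 9.64 on large arrays. Its values overlapped at ZT0 only (-1.94 ± 0.42, adjusted p = 0.0041). The synaptotagmin genes Sytbeta (-1.71 ± 0.34, adjusted p = 0.0018) and Sytalpha (-1.72 ± 0.38, adjusted p = 0.0042) were lower as well, Sytbeta at 5.06 and 4.38 at ZT0 on small arrays against 7.02 to 7.49 on large ones.

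Subunits of the vacuolar ATPase, the proton pump that acidifies vesicles and lysosomes, were lower in 8 of 17 cases and higher in 0 (9 and 0 at an unadjusted p under 0.05 and also with a variance trend and robust moderation), with a median of -0.71. The called share was 47.1%, against 17.4% of all genes. With only the 4 groups in the fit 3 were lower and 0 higher. VhaM9.7-b was at 10.41, 10.44, 10.95 and 10.07 on small and 11.71 to 12.78 on large arrays, with no overlap (-1.94 ± 0.26, adjusted p = 5.9e-05). VhaPPA1-1 was at 11.70 to 12.26 on small and 12.81 to 13.23 on large arrays (-0.94 ± 0.21, adjusted p = 0.0041). The lysosomal sterol carrier gene Npc2a was at 10.23, 9.95, 9.16 and 7.95 on small and 10.76 to 11.45 on large arrays (-1.86 ± 0.29, adjusted p = 0.00027). In the wider list of 27 autophagy and lysosome genes 1 was higher and 2 lower (11.1% called).

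Cyclic AMP genes changed member by member. Of 36 genes of cAMP and calcium signalling 7 were higher and 6 lower (36.1% called against 17.4% of all genes). Of these, 4 and 3 kept their calls without small ZT0 replicate 1 and large ZT0 replicate 2. Pka-C3, a catalytic-type protein kinase A, read 12.17, 11.21, 11.32 and 11.84 on small arrays and 8.55 to 9.38 at ZT0 and 5.11 to 8.03 at ZT12 on large arrays (3.73 ± 0.62, adjusted p = 0.00047). The adenylyl cyclase gene Ac78C was higher, at 10.86 to 12.59 on small and 7.61 to 9.46 on large arrays (2.81 ± 0.54, adjusted p = 0.0016). Another cyclase gene, Ac76E, was lower, at 8.93, 9.10, 9.20 and 7.37 on small and 11.15 to 12.71 on large arrays (-3.19 ± 0.49, adjusted p = 0.00024). The 2 cyclases thus had opposite signs with no overlap in either. Pde11, a cyclic nucleotide phosphodiesterase, was lower within each time, at 9.92 and 8.30 against 12.40 to 12.94 at ZT0 and at 6.31 and 3.08 against 6.07 to 9.87 at ZT12, where 1 large array fell below 1 small array (-3.55 ± 0.65, adjusted p = 0.00093). The regulatory subunit gene Pka-R1 was lower by less (-1.20 ± 0.24, adjusted p = 0.0024). The calcium-binding protein gene Scp2 was at 8.73 and 8.08 at ZT0 and 12.49 and 11.09 at ZT12 on small arrays and between 2.6 and 5.70 on large arrays (5.98 ± 0.73, adjusted p = 2.8e-05).

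Genes regulated by activity or in stress-kinase pathways had 13 of 24 higher and 0 lower (at an unadjusted p under 0.05, 13 and 1; with a variance trend and robust moderation, 13 and 0), with a median difference of 1.27. The called share was 54.2%, against 17.4% of all genes. Fitting only the 4 groups called 11, and 10 kept their calls without small ZT0 replicate 1 and large ZT0 replicate 2. Arc1, whose Gag-like protein forms capsids that carry RNA, read 14.75, 13.95, 15.04 and 14.27 on small arrays. The large arrays had it at 5.36, 10.38 and 5.79 at ZT0 and at 7.10, 6.77 and 8.33 at ZT12, so large ZT0 replicate 2 was the highest of them. The difference was 7.22 ± 0.88 (adjusted p = 2.8e-05), and ELAV arrays were at 12.7 to 15.3. The related gene Arc2 was at 9.93 to 10.51 on small and 5.39 to 8.30 on large arrays (3.38 ± 0.61, adjusted p = 0.00093), and ELAV arrays reached only 8.2.

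Hr38, the fly NR4A nuclear receptor and an early-response gene, read 11.75 and 10.62 at ZT0 and 4.36 and 7.0 at ZT12 on small arrays, and 2.78 to 5.38 on large arrays. The small ZT0 arrays stood alone, by 7.42 ± 0.97 (adjusted p = 0.0001), while at ZT12 the kinds overlapped (1.40 ± 0.97, adjusted p = 0.43) and the change between times just missed the threshold (adjusted p = 0.053). Gadd45, a stress-response gene upstream of p38 and JNK kinases, was at 10.57, 9.18, 8.85 and 8.03 on small and 5.24 to 6.73 on large arrays (3.29 ± 0.43, adjusted p = 4.4e-05), and ELAV arrays lay at 4.2 to 6.0. The JNK phosphatase gene puc was at 8.85 to 10.96 on small and 3.50 to 8.89 on large arrays, so large ZT12 replicate 1 reached the small range (3.10 ± 0.66, adjusted p = 0.0033).

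Of 8 core clock genes 4 were higher and 0 lower (5 and 0 at an unadjusted p under 0.05, and 4 and 0 with a variance trend and robust moderation), namely Clk, per, Pdp1 and cwo. These 4 are 50% of the list, against 17.4% of all genes called. Of the 4, Clk alone kept its call with only the 4 groups in the fit, where cry was called in addition. Clk alone also kept it without small ZT0 replicate 1 and large ZT0 replicate 2. Clk read 12.69 and 12.33 at ZT0 and 8.72 and 8.93 at ZT12 on small arrays, and 8.78, 9.98, 10.34 and 7.42, 4.35, 5.38 on large arrays. It was higher in small neurons at ZT0 (2.80 ± 0.69, adjusted p = 0.015) and at ZT12 (3.11 ± 0.69, adjusted p = 0.01), on every array within a time. The gene per was at 10.22 and 10.91 on small and 7.77, 7.87 and 8.18 on large arrays at ZT0, a difference of 2.62 ± 0.58 (adjusted p = 0.0073). Over both times its call was lost in 7 of the 10 fits that left out an array (adjusted p as high as 0.17, without small ZT12 replicate 1). At ZT12 the kinds overlapped, with 12.18 and 10.88 on small and 11.43, 12.69 and 10.67 on large arrays (-0.07 ± 0.58, adjusted p = 0.97). The change of its difference between times was not called (adjusted p = 0.17). The transcription factor gene Pdp1 was at 12.02, 11.66, 12.55 and 13.82 on small and 9.88 to 12.45 on large arrays (1.21 ± 0.32, adjusted p = 0.014), with p as high as 0.092 in the 2 of 10 fits that lost its call (without small ZT12 replicate 2). The repressor gene cwo was at 13.02, 12.42, 13.80 and 13.52 on small and 11.55 to 13.17 on large arrays (0.93 ± 0.29, adjusted p = 0.034), and 7 of these fits lost its call (0.14 without small ZT0 replicate 1). Both overlapped between the kinds over the 2 times. At ZT0 cry read 13.46 and 13.58 on small and 11.34 to 11.61 on large arrays, which did not pass the test (adjusted p = 0.11). The level of vri was 8.33 and 8.09 at ZT0 and 14.85 and 14.39 at ZT12 on small arrays, inside or just above the large range at both times, and tim was at 14.66 and 14.65 on small against 13.48 to 13.85 on large arrays at ZT12 (adjusted p = 0.27). Among 16 clock kinase, phosphatase and degradation genes 2 were higher and 1 lower (18.8% called). One RNA-binding regulator of the clock, lark, was at 11.46 to 11.72 on small and 10.44 to 10.94 on large arrays (0.95 ± 0.20, adjusted p = 0.0037).

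Transcription factors of neuronal identity differed in a few members, 5 of 49 higher and 3 lower, a share (16.3%) near that of all genes. The BTB factor gene lov was at 6.71, 5.37, 8.14 and 5.15 on small and 10.70 to 11.38 on large arrays, far apart on all arrays (-4.64 ± 0.61, adjusted p = 4.9e-05). Lim1, a LIM homeodomain factor, read 8.80 and 9.86 at ZT0 and 11.48 and 7.42 at ZT12 on small arrays, with 12.44 to 13.48 on large arrays. Small ZT12 replicate 1 was again the nearest to large (-3.42 ± 0.52, adjusted p = 0.00022). The LIM homeodomain gene ap was at 3.32 to 5.15 on small and 5.27 to 8.78 on large arrays (-2.94 ± 0.62, adjusted p = 0.0029). The Pax6 gene toy was higher, at 12.71 to 13.53 on small and 10.98 to 11.87 on large arrays (1.62 ± 0.33, adjusted p = 0.0021). The zinc finger gene mamo was at 8.67 to 9.63 on small and 7.37 to 8.10 on large arrays (1.43 ± 0.31, adjusted p = 0.004). The homeodomain gene zfh2 was at 8.19, 5.05, 4.97 and 6.71 on small and under 4 on all 6 large arrays (2.62 ± 0.57, adjusted p = 0.0041).

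Surface and guidance genes formed the longest list, and 22 of 92 were higher and 8 lower (median 0.28). The called share was 32.6%, against 17.4% of all genes. Over all 92 tested, 14 were higher and 5 lower with no overlap between small and large arrays, whether called or not, and over all probe sets these shares were 5.21% and 4.36%. Of the 22 and 8 called, 15 and 7 kept their calls without small ZT0 replicate 1 and large ZT0 replicate 2. The teneurin gene Ten-m, which matches synaptic partners, was at 10.09, 9.17, 9.39 and 9.82 on small and 3.36 to 6.39 on large arrays (4.07 ± 0.48, adjusted p = 2.1e-05). DIP-beta and DIP-gamma encode immunoglobulin proteins that bind partners of the Dpr family. DIP-beta was at 6.34 to 9.40 on small and 3.23 to 5.86 on large arrays (3.74 ± 0.41, adjusted p = 9.5e-06), and DIP-gamma at 7.26 to 8.39 and 4.21 to 5.82 (3.02 ± 0.32, adjusted p = 6.6e-06). The Dpr genes dpr8 (-2.44 ± 0.39, adjusted p = 0.00029) and dpr5 (-2.15 ± 0.38, adjusted p = 0.00081) were lower in small neurons. In all, dpr7, dpr17 and dpr18 were higher and dpr5, dpr8 and dpr14 lower, while most of the Dpr genes tested were not called. Of the DIP genes DIP-beta, DIP-gamma and DIP-iota were higher and DIP-delta lower. The other DIP genes tested, DIP-zeta, DIP-theta and DIP-kappa, were not called.

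The guidance gene beat-IV was at 11.17 to 12.56 on small and 4.85 to 9.86 on large arrays (3.81 ± 0.45, adjusted p = 1.9e-05), while beat-Ia, which loosens motor axon bundles, was at 8.66 to 10.54 and 10.84 to 11.94 (-2.13 ± 0.43, adjusted p = 0.0021). The matrix metalloprotease gene Mmp2 was at 8.73 to 9.71 on small and 4.57 to 6.38 on large arrays (3.79 ± 0.47, adjusted p = 3e-05). The leucine-rich adhesion gene Con, connectin, was at 10.26 to 11.11 and 5.43 to 8.43 (3.54 ± 0.49, adjusted p = 8.1e-05). Among genes outside the list CAP, a cytoskeletal adaptor at adhesion sites, was lower, at 3.83, 3.75, 3.73 and 4.26 on small and 6.48 to 8.97 on large arrays. All small values were background and no large value was, which gave -4.14 ± 0.34 (adjusted p = 3.7e-07) and a large level at least 8.22-fold higher. The Toll-family gene 18w, a member of the list, was at 3.54 to 5.03 on small and 6.96 to 9.12 on large arrays (-3.94 ± 0.52, adjusted p = 5.4e-05). Pxn, peroxidasin of the extracellular matrix and a haemocyte marker, is on the list as well. It was at 8.17, 5.89, 9.94 and 6.33 on small and at 10.85 to 11.35 on large arrays (-3.56 ± 0.52, adjusted p = 0.00016). The part of haemocyte or matrix RNA in this difference was not tested.

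Of the 17 tetraspanin genes, which encode membrane scaffold proteins, 3 were higher and 5 lower (47.1% called against 17.4% of all genes). Tsp66E was at 6.28 to 9.16 on small and 2.88 to 5.30 on large arrays (4.08 ± 0.44, adjusted p = 8.1e-06). Tsp42Eo read 5.37 and 2.36 at ZT0 and 8.02 and 3.60 at ZT12 on small arrays, with 8.52 to 9.82 on large arrays (-4.35 ± 0.87, adjusted p = 0.0021). Of 7 gap junction innexins on the array 3 passed the filter, Inx2 and Inx3 on low values, and 1 of the 3 was called. Inx7 was at 4.36, 5.90, 2.36 and 4.67 on small and 7.29 to 8.93 on large arrays, with no overlap (-3.97 ± 0.55, adjusted p = 8.6e-05). Inx2 was at 3.82 to 4.57 on small and 4.06 to 6.70 on large arrays (-1.79 ± 0.72, adjusted p = 0.097, and 0.048 with only the 4 groups in the fit). Inx3 was under 5 on all but large ZT0 replicate 2, at 5.85 (adjusted p = 0.97).

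**Figure D3:**
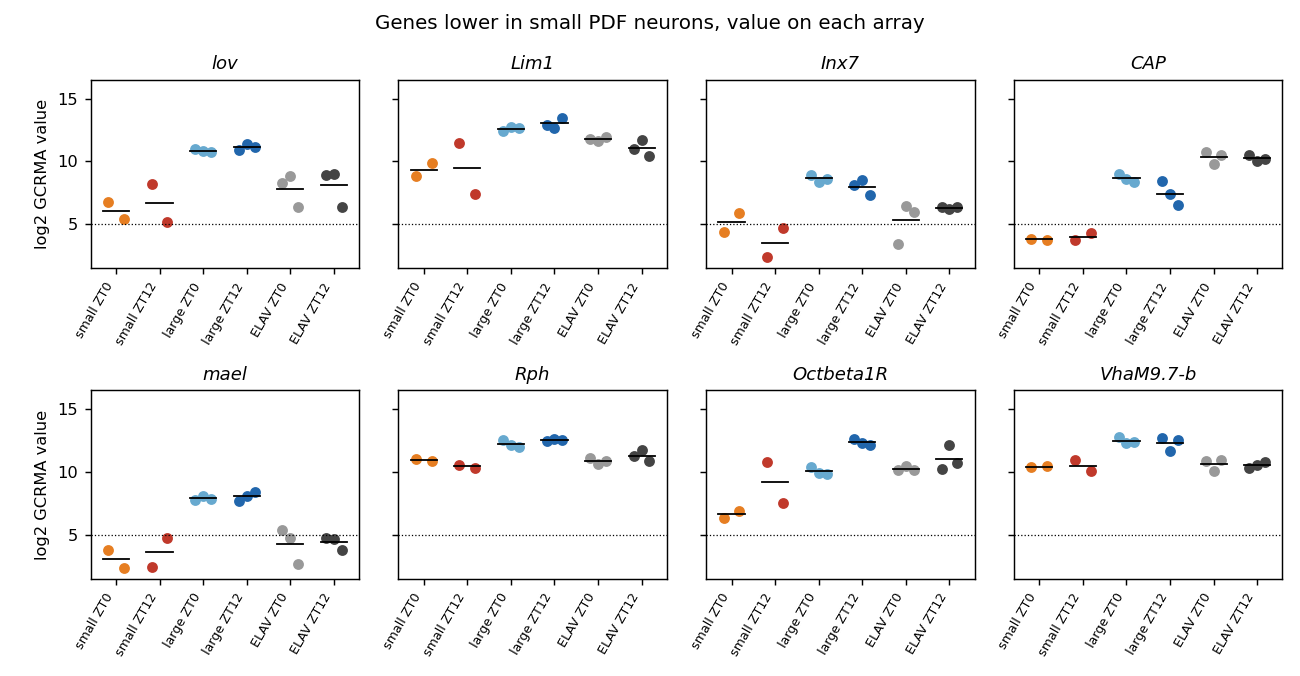
Log2 value on each array for 8 genes called lower in small PDF neurons, with a bar at each group's mean and a dotted line at log2 5. Small arrays are orange (ZT0) and red (ZT12), large arrays light and dark blue, ELAV arrays light and dark grey, and the higher of the 2 small ZT12 values of lov, Lim1 and Octbeta1R is that of replicate 1.

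Of 21 genes of glycolysis and carbohydrate metabolism 11 were higher and 1 lower, with a median of 0.77. The called share was 57.1%, against 17.4% of all genes. Fitting only the 4 groups called 7 higher and 1 lower, and 6 and 1 kept their calls without small ZT0 replicate 1 and large ZT0 replicate 2. Pfk, phosphofructokinase, which sets the pace of glycolysis, was at 11.99 and 12.08 at ZT0 and 10.86 and 10.83 at ZT12 on small arrays, and at 9.52 to 10.16 on large arrays (1.62 ± 0.25, adjusted p = 0.00022). Both glycogen enzymes were higher. Glycogen phosphorylase, Glyp, was at 9.32 to 10.41 on small and 6.99 to 9.04 on large arrays (1.93 ± 0.30, adjusted p = 0.00022), and glycogen synthase, Glys, at 9.88 to 10.41 and 7.93 to 9.44 (1.52 ± 0.26, adjusted p = 0.0006). The malate dehydrogenase gene Mdh1 was at 9.52 to 11.03 and 8.08 to 8.99 (1.45 ± 0.26, adjusted p = 0.00093), and the gene Pepck2 of gluconeogenesis at 5.86 to 7.06 and 3.27 to 4.89 (2.52 ± 0.54, adjusted p = 0.0037). The lower gene was Sodh2, a sorbitol dehydrogenase, at 4.20, 6.07, 7.73 and 2.53 on small and 8.85 to 9.62 on large arrays (-4.04 ± 0.76, adjusted p = 0.0013).

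Metabolite transporters had 6 of 33 genes higher and 2 lower (24.2% called against 17.4% of all genes). Indy, the citrate transporter known for its effect on fly lifespan, was at 12.64, 11.74, 12.68 and 12.54 on small arrays and at 4.04, 8.35, 6.16 and 8.83, 3.54, 3.25 on large arrays (6.71 ± 1.29, adjusted p = 0.0015). It is also on the glial marker list. Of that list nrv2 was called higher too, at 5.89 to 7.70 on small and 4.62 to 6.37 on large arrays. The glial gene loco was called lower, at 5.93 to 6.59 on small and 6.35 to 9.10 on large arrays. Gs2 read 6.95 on small ZT0 replicate 2 and 9.53 on large ZT0 replicate 2. The gene moody read 5.2 on small ZT0 replicate 2 and 5.03 on large ZT12 replicate 3. The level of repo was 3.01 to 3.45 on small and 3.04 to 5.14 on large arrays. The part of glial RNA in the Indy difference was not tested. Ntl, of the sodium-coupled neurotransmitter transporter family, was at 6.49, 4.75, 7.40 and 7.68 on small arrays. It was at background on all large arrays (2.48 to 2.75) and on ELAV arrays (2.5 to 2.8), which gave 3.96 ± 0.26 (adjusted p = 3.6e-08) and at least 3.12-fold. The monocarboxylate transporter gene chk was at 11.21 to 11.94 on small and 7.37 to 9.24 on large arrays (3.45 ± 0.42, adjusted p = 2.3e-05). The amino acid transporter gene JhI-21 read 11.25 and 9.94 against 4.89 to 7.93 at ZT0 and 11.77 and 12.73 against 10.01 to 11.06 at ZT12 (2.75 ± 0.50, adjusted p = 0.00092).

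Other genes had some of the smallest p-values. Marf1, an RNA-binding regulator first described in egg cells, was at 8.40, 8.13, 6.77 and 7.52 on small arrays and at 2.79 to 2.92 on large arrays, with at most 4.0 on ELAV arrays. Nothing overlapped, and the difference was 4.87 ± 0.24 (adjusted p = 7.5e-10, at least 6.51-fold). Shrm, shroom, an actin-binding protein, was at 6.14 to 6.67 on small and 2.62 to 2.93 on large arrays (3.55 ± 0.31, adjusted p = 6.4e-07, at least 2.57-fold). The sodium and proton exchanger gene Nha2 was at 6.56 to 7.90 and 2.96 to 4.65 (3.42 ± 0.28, adjusted p = 3.7e-07, at least 4.44-fold). Of the CG genes CG11317 had a median of 11.63 and a highest value of 12.25 on small arrays and was at 5.34 to 7.52 on large arrays, with no overlap (5.2 ± 0.42, adjusted p = 3e-07). CG15784 was at 12.15 to 13.44 and 2.82 to 7.75 (6.83 ± 1.18, adjusted p = 0.00061).

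On the large side mael, of the piRNA pathway, was at 3.75, 2.37, 2.40 and 4.75 on small and at 7.68 to 8.37 on large arrays (-4.65 ± 0.52, adjusted p = 1.2e-05, at least 7.83-fold higher in large). On the large arrays of ZT6 and ZT18 mael was at 5.5 to 7.09, and on per01 arrays at 7.38 to 9.02. Of the 8318 probe sets it alone was at 7 or more on all large and under 5 on all small arrays compared. The other way round this held for 0. With 6 in place of 7, 7 were on in small and off in large neurons and 5 the reverse. CycJ, a cyclin, was at 2.6 to 4.64 on small and 6.95 to 8.45 on large arrays (-3.81 ± 0.58, adjusted p = 0.00022, at least 5.41-fold). Aven, an apoptosis regulator, was at 2.88 to 4.05 and 5.80 to 8.34 (-3.64 ± 0.36, adjusted p = 2.9e-06, at least 4.30-fold). The cuticle protein gene Cpr60D read 4.41 and 3.96 at ZT0 and 7.37 and 4.72 at ZT12 on small arrays and 8.11 to 10.71 on large arrays (-4.55 ± 0.39, adjusted p = 6.2e-07). ELAV arrays had it at 3.2 or less, and only small ZT12 replicate 1 of the small arrays passed 5. CG10126 read 3.15 and 3.24 at ZT0, 10.45 and 6.25 at ZT12 on small arrays and 10.76 to 11.89 on large arrays (-5.49 ± 1.00, adjusted p = 0.00095).

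**Figure D4:**
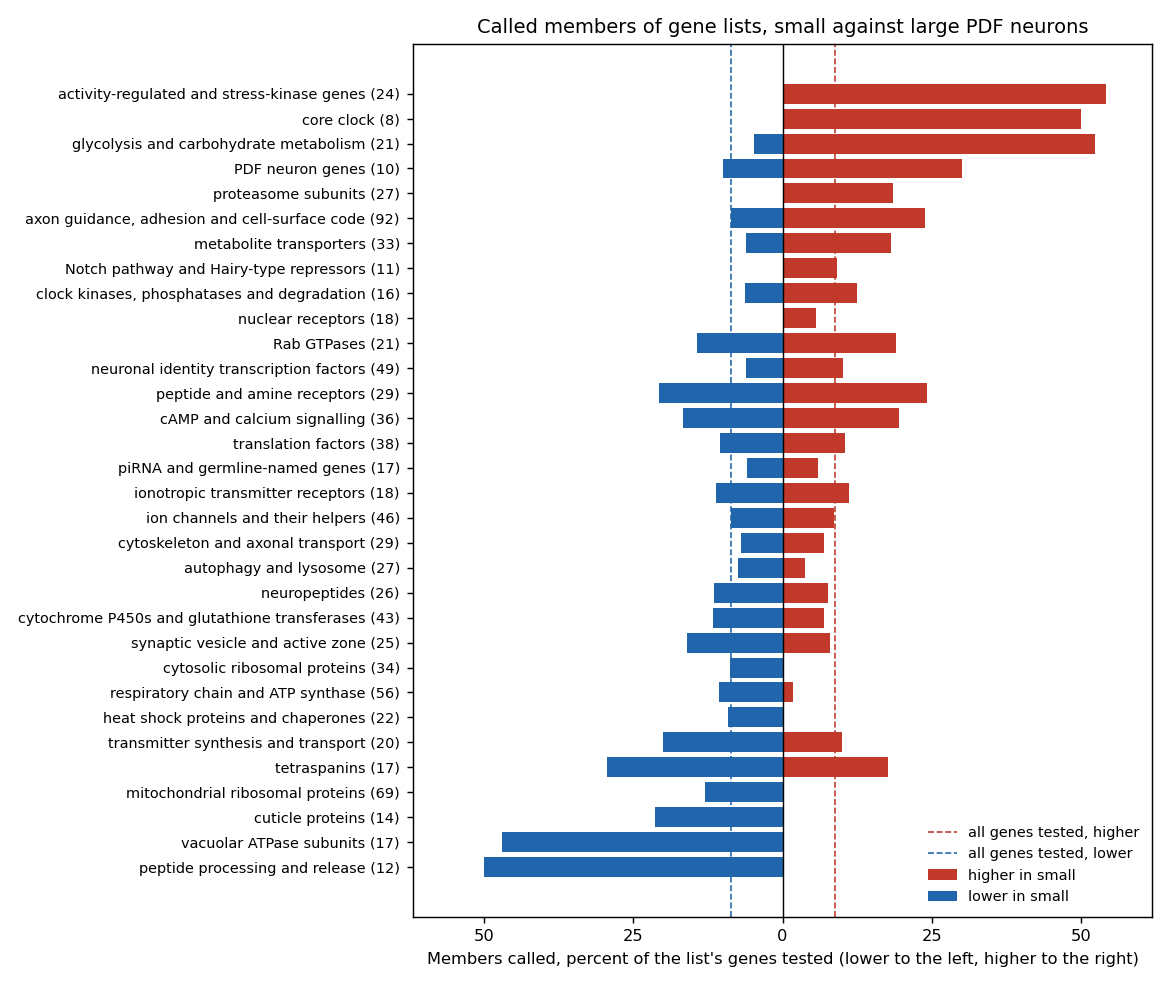
Percent of the tested genes of each list called higher (red, to the right) or lower (blue, to the left) in small PDF neurons, for lists with at least 8 tested genes (number in brackets), with the shares over all 6663 genes as dashed lines at 8.85% and 8.55%. Activity-regulated, carbohydrate and core clock genes reach farthest to the right and peptide processing and vacuolar ATPase genes farthest to the left.

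Over all genes 17.4% were called, 8.85% higher and 8.55% lower. Among the other lists, proteasome subunits had 5 of 27 higher and 0 lower (18.5% called). At an unadjusted p under 0.05 the counts were 13 and 1, and with a variance trend and robust moderation 5 and 0. The list's median was 0.54, and Prosalpha6 was at 10.38 to 10.89 on small and 8.99 to 9.90 on large arrays (1.11 ± 0.24, adjusted p = 0.004). Cytosolic ribosomal protein genes had 3 of 34 lower and 0 higher (6 and 0 at an unadjusted p under 0.05). Respiratory chain genes had 6 of 56 lower and 1 higher (14 and 1 at an unadjusted p under 0.05). Heat shock genes had 2 of 22 lower and 0 higher (3 and 1 at an unadjusted p under 0.05). With a variance trend and robust moderation these lists had 7, 11 and 3 lower, in this order, and 0 higher. The called shares were 8.82%, 12.5% and 9.09%, under the 17.4% of all genes called in either direction. Of all genes 8.55% were called lower, near the ribosomal and heat shock shares, whose calls were all lower. Translation factors had 4 of 38 higher and 4 lower (21.1% called). The 4 lower were all subunits of eIF3, but most of the eIF3 subunits tested were not called lower. With only the 4 groups in the fit 2 translation factors were higher and 2 lower. The subunit gene eIF3l was at 10.50 to 10.93 on small and 11.52 to 12.38 on large arrays (-1.19 ± 0.22, adjusted p = 0.00095). Genes of the active zone and synaptic vesicles had 2 of 25 higher and 4 lower, transmitter synthesis and transport genes 2 of 20 and 4, cytoskeleton genes 2 of 29 and 2, and piRNA genes 1 of 17 and 1. Their called shares were 24%, 30%, 13.8% and 11.8%, in this order. Nuclear receptors had 1 of 18 higher and 0 lower (6 and 0 at an unadjusted p under 0.05), and Notch pathway genes 1 of 11 higher and 0 lower (4 and 0). In these lists 5.56% and 9.09% were called. Of 14 cuticle protein genes 3 were lower and 0 higher (21.4% called, with 4 and 2 at an unadjusted p under 0.05). In a list of genes known from PDF neurons 3 of 10 were higher and 1 lower (40% called). Like the other lists it was chosen with earlier results of these data known, and it includes lov and Pdfr.

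The contrast was also taken at each time by itself. At ZT0 784 probe sets (9.43%) were called, 438 (5.27%) higher and 346 (4.16%) lower in small neurons, and at ZT12 653 (7.85%), 334 (4.02%) higher and 319 (3.84%) lower. The ZT0 count was 396 without small replicate 1 and 370 without small replicate 2, and the ZT12 count was 265 without small replicate 2. The 2 times share no array but share the variance estimate. Called at both in the same direction were 245, which is 31.2% of the ZT0 calls and 37.5% of the ZT12 calls, and 5 were called in opposite directions. The sign was the same at the other time for 86.6% of the ZT0 calls and 89.4% of the ZT12 calls, against 65.9% of all tested. Differences at the 2 times had a Pearson r of 0.479 across the 8318 probe sets, which are not independent replicates. With only the 5 arrays of a time in the fit, 243 were called at ZT0 and 17 at ZT12, while 1746 and 1161 had an unadjusted p under 0.05.

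The difference between kinds itself changed between ZT0 and ZT12 for 58 probe sets (0.697%), 20 toward higher and 38 toward lower values in small neurons at ZT12. At an unadjusted p under 0.05 there were 904, and with only the 4 groups in the fit 5 were called. E(spl)m6-BFM, a Bearded-family gene of the Notch response, read 2.86 and 3.43 on small arrays at ZT0 and 8.16 and 8.12 at ZT12. It was at 3.44 or less on the 6 large arrays, so both small ZT12 arrays stood alone and the difference rose by 4.95 ± 0.38 (adjusted p = 7.4e-07). Nepl20, a neprilysin-like peptidase, read 3.04 and 3.22 at ZT0 and 5.88 and 6.08 at ZT12 on small arrays, and 5.0 to 6.31 and 3.02 to 3.33 on large arrays. The kinds thus exchanged places (5.21 ± 0.58, adjusted p = 0.00016). These 2 genes were called with only the 4 groups in the fit too (adjusted p = 0.01 and 0.021).

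Dh31-R, the receptor of DH31, was at 7.61 and 6.05 on small against 10.37 to 10.78 on large arrays at ZT0, and at 11.82 and 12.29 against 11.44 to 12.06 at ZT12. Small neurons were lower at ZT0 (-3.80 ± 0.53, adjusted p = 0.00018), and at ZT12 the kinds overlapped (0.35 ± 0.53, adjusted p = 0.77). The change of 4.14 ± 0.75 (adjusted p = 0.012) was not called without small ZT0 replicate 2 (adjusted p = 0.075) or with only the 4 groups in the fit (0.13). The BTB factor gene chinmo went from 12.11 and 12.51 at ZT0 to 4.69 and 4.29 at ZT12 on small arrays, and from 9.89 to 10.16 to 5.17 to 7.55 on large arrays. Small neurons had the higher values at ZT0 and the lower ones at ZT12 (-4.34 ± 0.86, adjusted p = 0.021), and 3 of the 10 fits that left out an array lost this call (p as high as 0.094, without small ZT0 replicate 2). Fitting only the 4 groups gave an adjusted p of 0.17.

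**Figure D5:**
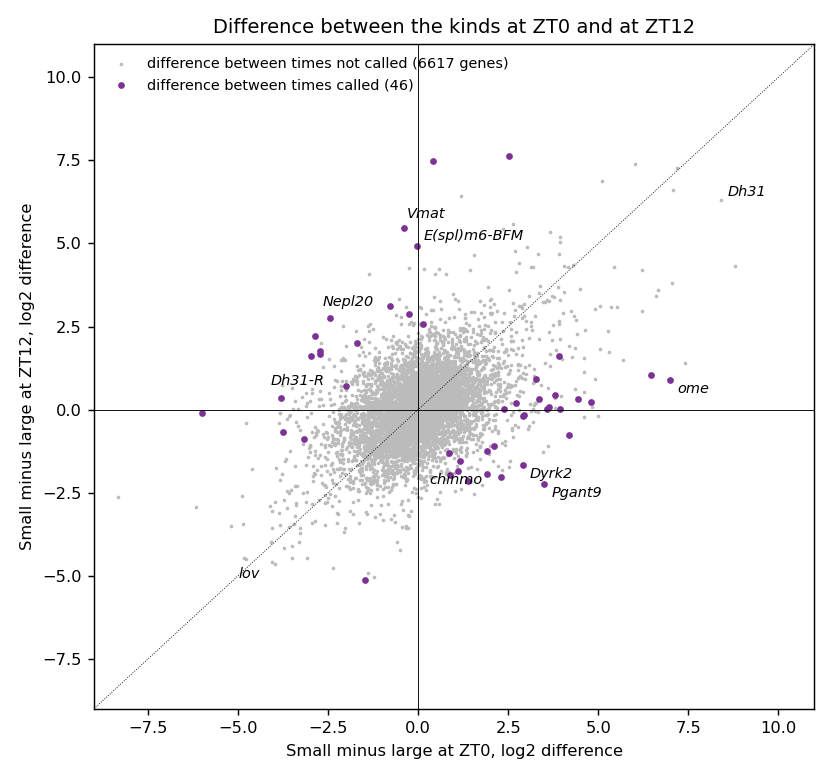
Log2 difference between small and large PDF neurons at ZT0 (x axis, 2 against 3 arrays) and at ZT12 (y axis, 2 against 3 other arrays) for each of the 6663 genes, with the line of equal difference. Genes whose difference changed between the times are purple, and lov lies near the line and Dh31 far out in the same direction at both times, while E(spl)m6-BFM and Vmat differ at ZT12 and ome at ZT0.

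Levels on arrays outside the contrast were set beside the calls. The 4 large arrays of ZT6 and ZT18 were all on the large side of all 4 small arrays for 442 (58.2%) of the probe sets called higher in small neurons, against 10.3% of all tested, and for 358 (54%) of those called lower, against 8.05%. For the 4 per01 arrays the shares were 81.2% against 35.5% and 25.8% against 3.53%, and these arrays have lower values as a whole. The small arrays are the same in all these counts, and the called probe sets were chosen by the values on them. This choice by itself raises the shares over those of all tested, so they are no independent check of the calls. The ELAV mean was nearer to small than to large neurons for 33.4% of the higher and 40.6% of the lower probe sets, and for 44.5% of all tested. These shares too rest on the small and large values by which the probe sets were called.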

How the data were processed

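RNA from hand-sorted neurons was amplified in 2 rounds and hybridised to 24 Affymetrix arrays, per the labels' protocols. The authors' deposited values are log2 expression per probe set, made with GCRMA (a background correction and normalization from probe sequence) in R 2.6, per the submitters' processing notes. The sources used here do not say which arrays were normalized as one set. GCRMA sets weak signals to near equal low values, so differences that reach under 5 include background.

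Of 18952 probe sets 183 controls were left out, and 8318 at 5 or more on at least 2 of 24 arrays were tested. GEO's platform annotation gave 1 symbol for 13646 of the others, several for 402 and none for 4721. Only those with 1 symbol are named, with symbols updated by Entrez ID from the Release 6 annotation, and each gene is represented by the probe set highest on average.

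Means of 10 groups were fitted with limma 3.58.1 in R 4.3.3 (residual df 14, prior df 3.62), and the contrast averaged ZT0 and ZT12. Adjusted p-values are Benjamini-Hochberg over 8318, called under 0.05. Errors are SE. Array number limits the precision. Replicates are labelled biological, with separate pools of brains not stated. The p-values measure the spread between replicates pooled over all 10 groups, not only those compared. Median SDs in groups of 2 arrays were 0.35 and 0.44 for small neurons and 0.29 to 0.32 for the ZT6, ZT18 and per01 groups. In groups of 3 arrays they were 0.46 and 0.59 for large and 0.42 and 0.46 for ELAV neurons at ZT0 and ZT12. "At least" folds raise values under 5 to 5 where every array of the lower kind is under 5, and are left out where leaving out 1 array moves them over 1.5-fold.

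The comparison, its members and the 43 gene lists (10 of markers) were chosen with earlier results of these data known. Of the list names 13 matched no gene. Named genes are the 12 largest differences and 12 smallest p-values each way among called genes without overlap (3 of CG or CR number), the 8 core clock genes and Pdf, up to 5 called genes each way of each list, markers at 7 or more on 1 array where the kind's median is under 5, peptide and receptor genes of the on and off sets, the 6 largest time differences each way and the innexins. Same-numbered replicates had correlations of deviations from -0.04 to 0.064, and the main fit used no pairing. With 2 or 3 arrays a group, these correlations cannot tell whether samples of 1 number shared brains or a sorting day. The fit was tested on simulated data, in which the smallest changes were mostly missed and larger ones mostly recovered. Each simulated probe set had the same spread in all groups, while the real groups differed in spread. Recovery in these data may therefore be different, and a gene not called may still differ. Alternatives changed the samples in the fit, variance moderation, weights, filter, floor and scaling, added a replicate block and left out arrays. Leaving out 2 arrays together and fitting each time alone were chosen after seeing the data.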

Additional observations from a re-analysis of the deposited data

Results flagged for a closer look

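The genes below are those named here whose difference between small and large PDF neurons changed between ZT0 and ZT12 by limma's test of that change, in log2 at ZT12 minus ZT0. No explanation was tested for any of them. Groups held 2 or 3 arrays, too few for a check of single outlying arrays within a group.

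The change was positive, toward higher values in small neurons at ZT12, for Vmat (5.86), Nepl20 (5.21), E(spl)m6-BFM (4.95), GAPsec (4.60), ko (4.50), Dh31-R (4.14) and app (2.27). The vesicular monoamine transporter gene Vmat read 2.43 and 2.55 at ZT0 and 9.7 and 7.05 at ZT12 on small arrays and at most 3.56 on large arrays, against 14.6 to 14.8 on ELAV arrays, and 2 of its 3 other probe sets differed in sign in the contrast of both times. The palmitoyltransferase gene app was at 9.52 and 9.12 at ZT0 and 11.65 and 12.03 at ZT12 on small arrays, under the large range of 12.32 to 12.82 at both times. GAPsec, a Rab GTPase activator, was at 6.17 and 4.40 and then at 8.53 and 7.50 on small arrays, with 7.86 to 8.70 and 6.09 to 6.95 on large ones.

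It was negative for ome (-6.09), Pgant9 (-5.73), Dyrk2 (-4.57), jeb (-4.57), chinmo (-4.34), Rcd2 (-4.12), Dhc93AB (-3.04) and mGluR (-2.34). The dipeptidyl peptidase gene ome was at 10.30 and 10.20 at ZT0 and 5.76 and 6.56 at ZT12 on small arrays, with 3.13 to 3.38 and 2.91 to 7.05 on large arrays. The gene jeb, the ligand of the receptor Alk, fell on small arrays from 11.13 and 9.98 to 8.15 and 7.67 while large arrays read 4.88 to 6.86 and 7.35 to 7.88. The kinase gene Dyrk2 was at 13.02 and 12.30 and then at 8.54 and 6.67 on small arrays, with 8.55 to 10.04 on large ones. The glutamate receptor gene mGluR was at 5.99 and 5.38 and then at 3.56 and 3.13 on small arrays, with 2.41 to 2.45 on all 6 large arrays.

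With only the 4 groups in the fit E(spl)m6-BFM and Nepl20 kept the call and the other genes had adjusted p of 0.13 to 0.21. In fits without 1 array the call was lost for app and mGluR in 7 of 10 (adjusted p up to 0.147 and 0.142), for Dyrk2 in 4 (0.107), for jeb (0.115), ome (0.0965) and chinmo (0.094) in 3, and for Dh31-R (0.0749), Pgant9 (0.0547) and Dhc93AB (0.0537) in 1.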

How the results depend on the processing

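Fitting only the 4 groups compared gave 802 calls for both times, 329 at ZT0, 188 at ZT12, 5 for the change between times and 144 called members over the gene lists, in place of 217. At ZT0 leaving out small ZT0 replicate 1 and large ZT0 replicate 2 together gave 326, at ZT12 array weights gave 316, and a floor at log2 5 gave 110 for the change between times. Without 1 array, calls for both times ran from 1000 to 1538 (lowest without small ZT0 replicate 2), at ZT0 from 370 (without small ZT0 replicate 2; 396 without small ZT0 replicate 1) to 863, at ZT12 from 265 (without small ZT12 replicate 2) to 675 and for the change between times from 42 to 76. The on and off count, 1 here, was 12 at log2 6, 2 after quantile normalization and 1 to 6 without 1 array. With the replicate number as a block 1304 were called for both times and 21 of 200 named called genes lost the call. The labels do not say whether the numbers pair samples. Of the 200, 51 lost the call with only the 4 groups, 136 kept it in every fit without 1 array, and 0 turned sign, while cry and Inx2 gained a call with only the 4 groups. Other alternatives for both times kept counts within 1.5-fold, from 956 to 1541. The cause of these shifts was not tested. Fitting only the 4 groups leaves fewer arrays behind each variance and also changes which groups supply it. Values near background limit low genes such as Pdfr at ZT0.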

Other observations

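Mitochondrial ribosomal protein genes had 9 of 69 lower and 0 higher in small PDF neurons (16 and 2 at an unadjusted p under 0.05, and 9 and 0 with a variance trend and robust moderation), a share of 13% with a median of -0.42. Of all genes 17.4% were called in either direction and 8.55% were called lower. With only the 4 groups in the fit 4 were lower. The gene mRpS21 was at 5.42, 5.47, 3.35 and 3.28 on small and 5.88 to 7.57 on large arrays (-2.28 ± 0.40, adjusted p = 0.00072). Both small values at ZT12 were under 5.

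Vesicle traffic genes of the Rab family had 4 of 21 higher and 3 lower (33.3% called against 17.4% of all genes). Rab3-GEF, the exchange factor of the synaptic vesicle GTPase Rab3, was at 12.81 and 12.87 at ZT0 and 10.48 and 11.87 at ZT12 on small arrays and 9.51 to 10.67 on large arrays (1.95 ± 0.28, adjusted p = 0.00014). Rab3GAP1, which acts on the same GTPase, was at 6.01 to 6.63 and 2.82 to 4.82 (2.78 ± 0.46, adjusted p = 0.00044). Rab35 was lower, at 6.32 to 7.0 on small and 6.79 to 8.81 on large arrays (-1.38 ± 0.33, adjusted p = 0.0071).

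Detoxification genes had 3 of 43 higher and 5 lower (18.6% called against 17.4% of all genes). Cyp9c1 was at 6.77 to 7.86 on small and 3.16 to 6.34 on large arrays (2.90 ± 0.49, adjusted p = 0.00052). The glutathione transferase gene GstS1 was at 5.38, 2.79, 4.33 and 4.28 on small and 7.05 to 8.21 on large arrays, with no overlap (-3.38 ± 0.47, adjusted p = 9.9e-05).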
